A study of Arabidopsis thaliana with 6 samples.

Results

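The best-covered de novo loci of this experiment are 203 of the 6393 transcription units that the authors assembled from the reads with cufflinks and numbered with the prefix XLOC. A locus was taken when its raw counts over the 6 libraries summed to at least 60. This rule on level did not use the difference between the genotypes, but a locus with few counts can reach it mainly through 1 genotype. The members hold 91.3% of all counts on de novo loci, which had a median total of 1 count, and 2198 of the 6393 loci were listed at 0. The libraries came from whole Arabidopsis thaliana seedlings, 3 of the nsra/b genotype and 3 of the Col-0 wild type. The nsra/b plants carry a T-DNA insertion in each of the genes NSRa and NSRb (lines SALK_003214 and Sail_717) in the Col-0 background. Both genotypes had been moved for 24 h to mock medium without auxin before harvest. The labels place the transfer at 14 days and the harvest at 15 days under 16 h of light and 8 h of dark, whereas the study's methods give a shorter growth before transfer. The replicates were stated to be biological, but not which plants shared a plate, so p-values measure the spread between these libraries.

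NSRa and NSRb are RNA-binding proteins of the nuclear speckle, a nuclear body that stores splicing factors, and they are known to bind a long non-coding RNA, ASCO, as well as mRNAs whose splicing they alter. De novo loci in such a dataset are RNAs with a poly(A) tail that the gene annotation lacked. They typically include antisense transcripts, which run over a gene on the opposite DNA strand, transcripts of intergenic DNA, unannotated ends of known genes, and primary microRNAs. A primary microRNA is the long capped and polyadenylated RNA from which the nuclear enzyme DICER-LIKE1 cuts a hairpin and then the mature microRNA. It is short-lived, because cutting destroys it.

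Counts per library ran between 25936176 and 32578330, and the members took 0.103% of all counts. Levels are given as counts or as CPM, the share of a library's counts scaled to a common total after TMM normalization, with factors of 0.9918 to 1.006. Positions were listed by the study for 86 members, each as the natural antisense RNA of a named gene, and the other 117 are known by number only. In a whole seedling, a lower count can come from fewer expressing cells or from less RNA per cell, and these cannot be told apart. Summed levels of 5 green tissue markers were 28493 to 29267 CPM in nsra/b and 28542 to 29579 CPM in Col-0. Among them GLDP1, a photorespiration gene, was called higher (log2 fold change 0.23, edgeR adjusted p = 2.77e-09), and LHCA1 (-0.07, adjusted p = 0.0278) and LHCB5 (-0.06, adjusted p = 0.0523), which encode light-harvesting proteins, were not called. Summed levels of 9 root markers were 112 to 117 CPM in nsra/b and 103 to 109 CPM in Col-0. CASP1, a protein of the root's Casparian strip, was called higher (log2 fold change 0.31), with means of 30.6 CPM in nsra/b and 24.8 CPM in Col-0. No other root marker was called, and the median log2 fold change of the list was 0.13. EXPA18 had 0.34 (edgeR adjusted p = 0.0105), PIN2 -0.09, SHR 0.004 and SCR -0.0009. The part of either marker list in the results on de novo loci was not tested. Of 4 flower and pollen markers, the pollen gene VGD1 was listed at 0 and only SEP3 passed the filter on low counts. The tables used here pair neither NSRa nor NSRb with a gene identifier, so the labels were not checked against the mutated genes.

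Sequences are shown for the loci that the results below turn on. For the 6 members that contain a mature microRNA on their own strand, the microRNA is taken from the RefSeq annotation of build TAIR10.1. It shows a mature arm that lies inside the locus. Bases 2 to 8 are in capitals.
miR167d, in XLOC_002186 (chr1:11137556-11137577, plus strand): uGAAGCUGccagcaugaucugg
miR171b-3p, in XLOC_006301 (chr1:3961367-3961387, minus strand): uUGAGCCGugccaauaucacg
miR319a, in XLOC_028597 (chr4:12353109-12353129, plus strand): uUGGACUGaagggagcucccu
miR164b-5p, in XLOC_033077 (chr5:287586-287606, plus strand): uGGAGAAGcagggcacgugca
miR398b-5p, in XLOC_033937 (chr5:4691033-4691053, plus strand): aGGGUUGAuaugagaacacac
miR398c-5p, in XLOC_033939 (chr5:4694705-4694725, plus strand): aGGGUUGAuaugagaacacac
The 5p arms of miR398b and miR398c have the same sequence, and their loci are told apart by position. The 3p arm of miR398b lies outside XLOC_033937, whereas the 3p arm of miR398c lies inside XLOC_033939 and is not listed here.

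The positioned members that differed between the genotypes and overlap the gene opposite them number 4. Their sequence around the border of the overlap is given on the strand of the de novo RNA, 5′ to 3′ in TAIR10.1, with the bases that lie opposite the annotated gene in capitals, to show where the overlap ends. The capitals are 60 of the 100 opposite bases for XLOC_003755, all 32 for XLOC_009735, and 60 of 96 for XLOC_016958 and for XLOC_033955.
XLOC_003755 (chr1:20942892-20943011, plus strand), opposite the coding sequence of AT1G55990: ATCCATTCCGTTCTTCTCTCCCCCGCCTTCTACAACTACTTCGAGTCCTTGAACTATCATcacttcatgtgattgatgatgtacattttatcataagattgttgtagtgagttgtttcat
XLOC_009735 (chr1:24912452-24912543, minus strand), opposite the lncRNA AT1G08847: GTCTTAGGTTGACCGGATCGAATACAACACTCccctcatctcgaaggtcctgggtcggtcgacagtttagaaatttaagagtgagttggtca
XLOC_016958 (chr2:14907197-14907316, minus strand), opposite the lncRNA AT2G08735: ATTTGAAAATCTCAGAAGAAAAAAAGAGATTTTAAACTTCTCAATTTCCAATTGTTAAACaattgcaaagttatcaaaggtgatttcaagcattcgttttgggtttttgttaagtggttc
XLOC_033955 (chr5:4800679-4800798, plus strand), opposite the transcribed pseudogene AT5G14840: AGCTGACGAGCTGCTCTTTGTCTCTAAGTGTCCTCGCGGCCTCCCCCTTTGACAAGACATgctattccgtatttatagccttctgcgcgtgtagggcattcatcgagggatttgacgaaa

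The members had few counts even though they are the best covered of their class. Their median level was 1.55 CPM, against 14.5 CPM for all 21606 features that passed the filter on low counts. CPM is not corrected for length, and the part of length in this gap was not tested. A total of 33 members reached 1000 counts over the 6 libraries and 68 stayed under 120. The 8 members of highest level held 46.0% of the counts of all members: XLOC_001724, XLOC_042755, XLOC_011546, XLOC_006438, XLOC_042714, XLOC_009772, XLOC_042759 and XLOC_042766. XLOC_001724 led with 123, 114 and 116 CPM in nsra/b and 140, 143 and 130 CPM in Col-0. XLOC_011546, which overlaps the pseudogene AT2G11240 by 100 nt at chr2:4483649-4484428, had 76.9, 70.1 and 64.1 CPM in nsra/b and 63.0, 69.2 and 61.7 CPM in Col-0. XLOC_006438, an 81-nt locus at chr1:4661094-4661174, had 64.3, 65.5 and 62.3 CPM in nsra/b and 57.4, 62.8 and 56.5 CPM in Col-0. For both of these the genotypes overlapped. Levels of different loci do not compare without regard to length. Per kilobase of listed span, XLOC_001724 had 672 CPM per kb and XLOC_011546 had 86.6 CPM per kb. The median of the 86 positioned members, short loci included, was 5.18 CPM per kb. XLOC_001724 covers 190 nt and its reads are divided among near-identical copies, so these values are a description. Listed spans ran from 20 to 2499 nt with a median of 221 nt, and 24 were under 100 nt, shorter than the reads given in the labels, so values per kilobase of the short loci do not compare with those of long loci, and none is given for XLOC_006438.

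Of the 202 members that could be tested, 11 differed between nsra/b and Col-0 (edgeR quasi-likelihood test, Benjamini-Hochberg adjusted p under 0.01 over all features), 7 of them higher and 4 lower in nsra/b. That is 5.45% of the members, against 8.86% of all features tested, with 5.28% of all features called higher and 3.58% called lower. At an unadjusted p under 0.05 there were 19 members higher and 17 lower, together 17.8% of the members, against 26.7% of all features. The genotypes did not overlap in CPM in 37 of the 202 members, against 6482 of all 21606 features tested. A lack of overlap alone therefore does not set a locus apart. DESeq2 called 0 members higher and 3 lower. Leaving out 1 library gave as few as 3 higher (without Col-0 replicate 3) and as many as 17 lower (without nsra/b replicate 1). The median log2 fold change of the members was -0.01, with quartiles of -0.20 and 0.15, and their median standard error was 0.19, against 0.06 over all features.

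**Figure D1:**
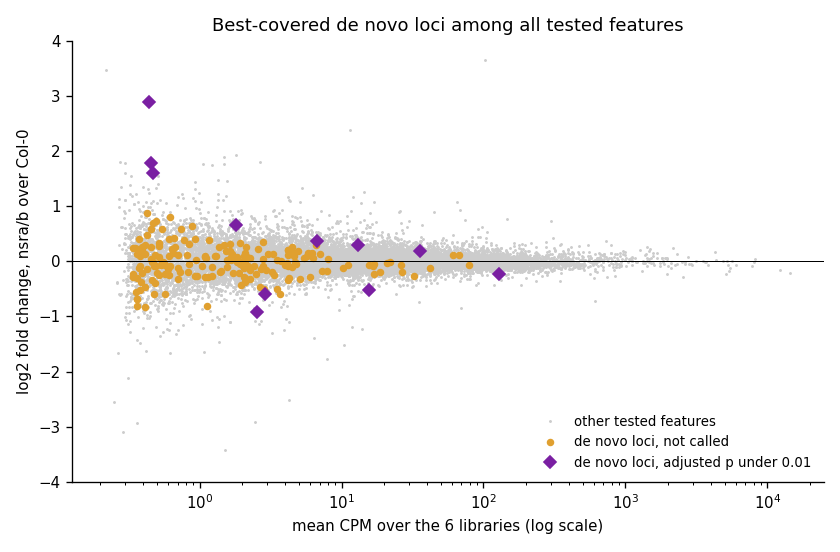
Log2 fold change (nsra/b over Col-0) against mean CPM over the 6 libraries (log scale) for every tested feature (grey), the tested de novo loci that were not called (orange) and the 11 that were called (purple diamonds). The called loci with the largest changes lie at the low end of the CPM range, and 4 features outside a log2 fold change of 4 in either direction are not drawn.

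The largest increases were in loci with few counts. XLOC_030975 had 24, 18 and 25 counts in nsra/b and 4, 2 and 3 counts in Col-0, a log2 fold change of 2.89 ± 0.41 (SE, edgeR adjusted p = 2.97e-06). Every nsra/b library held more counts than the 3 Col-0 libraries together, and the locus has no listed position. XLOC_016958, at chr2:14906873-14907352 on the minus strand, had 24, 25 and 12 counts in nsra/b and 4, 5 and 9 counts in Col-0, a log2 fold change of 1.79 ± 0.38 (edgeR adjusted p = 0.00102). Its nsra/b libraries spread widely, replicate 3 lying close above the highest Col-0 library, and without Col-0 replicate 1 or 2 the adjusted p was 0.0109 or 0.0118. XLOC_033955, at chr5:4800643-4801339 on the plus strand, had 19, 20 and 23 counts in nsra/b and 6, 11 and 4 counts in Col-0, a log2 fold change of 1.59 ± 0.34 (edgeR adjusted p = 0.00104). Here the nsra/b libraries lay close together and the Col-0 libraries did not, and without Col-0 replicate 3 the adjusted p was 0.0169. These 3 are the only members called with a log2 fold change of at least 1 in either direction, and DESeq2 gave none of them an adjusted p.

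The other 4 increases were smaller. XLOC_018685, without a listed position, had 2.54, 2.15 and 1.93 CPM in nsra/b and 1.71, 1.11 and 1.38 CPM in Col-0 (log2 fold change 0.66 ± 0.18, edgeR adjusted p = 0.00894). This call was the least stable, being lost when either of Col-0 replicates 2 and 3 or nsra/b replicates 1 and 2 was left out, at adjusted p between 0.0233 and 0.0929. XLOC_003755, at chr1:20942852-20943184, had 7.11, 7.32 and 8.17 CPM in nsra/b and 6.28, 6.16 and 5.04 CPM in Col-0 (log2 fold change 0.38 ± 0.09, edgeR adjusted p = 0.00441). Without Col-0 replicate 3 its adjusted p was 0.0581, and without nsra/b replicate 3 it was 0.0410. The genome holds another copy of this locus on chromosome 4 at 95.2% identity, so its reads may be shared. XLOC_009735, on the minus strand of chr1:24912040-24912543, had 14.7, 13.2 and 15.1 CPM in nsra/b and 11.96, 11.59 and 11.44 CPM in Col-0 (log2 fold change 0.29 ± 0.06, edgeR adjusted p = 0.00136). It begins 659 nt after the end of the MIR157a gene on the same strand, MIR157a being a source of miR157, a regulator of the change from juvenile to adult growth. Its adjusted p was 0.0106 without Col-0 replicate 3 and 0.0152 without nsra/b replicate 3. XLOC_009772, without a listed position, had 39.2, 38.3 and 37.0 CPM in nsra/b and 33.0, 34.0 and 33.4 CPM in Col-0 (log2 fold change 0.19 ± 0.04, edgeR adjusted p = 0.000896), with narrow groups that stood apart. With DESeq2 none of these 4 passed, at adjusted p of 0.0891 (XLOC_018685), 0.0572 (XLOC_003755), 0.0248 (XLOC_009735) and 0.0167 (XLOC_009772).

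Of the 4 members that fell, 3 have no listed position. XLOC_030984 fell most, with 48, 54 and 50 counts in nsra/b and 92, 92 and 112 counts in Col-0 (log2 fold change -0.91 ± 0.15, edgeR adjusted p = 2.4e-05). XLOC_038654 had 59, 80 and 60 counts in nsra/b and 96, 113 and 101 counts in Col-0 (log2 fold change -0.59 ± 0.13, edgeR adjusted p = 0.00181). Leaving out Col-0 replicate 1, Col-0 replicate 2 or nsra/b replicate 3 moved that adjusted p to between 0.0101 and 0.0209, and with DESeq2 it was 0.0305. XLOC_039261 had 294, 412 and 402 counts in nsra/b and 456, 613 and 577 counts in Col-0, a log2 fold change of -0.52 ± 0.06 and the smallest adjusted p of the members (2.71e-07 with edgeR). In all 3 the genotypes did not overlap in CPM.

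XLOC_001724, the most abundant member, averaged 118 ± 4.8 CPM in nsra/b and 137 ± 7.0 CPM in Col-0 (SD, n = 3 each), a log2 fold change of -0.22 ± 0.03 (edgeR adjusted p = 4.49e-06). It covers 190 nt at chr1:8798390-8798579, in a stretch of chromosome 1 that is present several times: 3 other copies of the locus were found within the same arm at 98.9% to 100% identity. The identical copy, at chr1:8775862-8776051, overlaps the first exon of AT1G24880, which RefSeq calls LpxC2, an enzyme of the lipid A pathway. AT1G24880 averaged 181 ± 11 CPM in nsra/b and 206 ± 5.4 CPM in Col-0 (log2 fold change -0.18 ± 0.03, edgeR adjusted p = 5e-05). The non-coding genes over the other copies also fell, AT1G25098 by 0.16 and AT1G25175 by 0.15 on the log2 scale (edgeR adjusted p = 0.00147 and 0.00307). For both of these genes the genotypes overlapped in CPM. The aligner kept 1 alignment per read, so reads of these copies are divided among them and the change cannot be assigned to one copy.

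**Figure D2:**
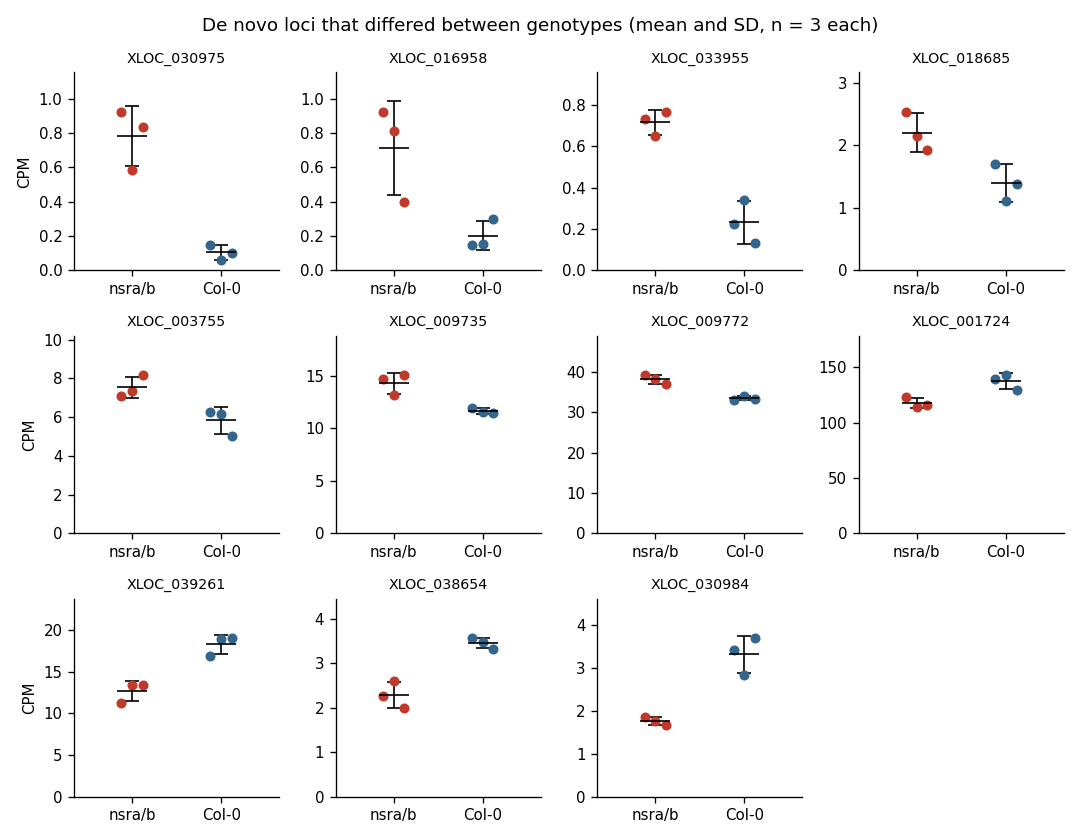
CPM in each library of the 11 called de novo loci, in order of log2 fold change, with nsra/b libraries (red) left of Col-0 libraries (blue), the mean as a bar and the SD as error bar (n = 3 each). The 7 loci that were higher in nsra/b come before the 4 that were lower, and XLOC_030975 shows the widest relative gap.

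Just short of the threshold, XLOC_005018 had 28, 26 and 17 counts in nsra/b and 39, 43 and 47 counts in Col-0 (log2 fold change -0.81 ± 0.22, edgeR adjusted p = 0.0101). It overlaps the coding sequence of AT1G73890, a lipid-transfer type protein gene, by 100 nt and was called when nsra/b replicate 1 was left out (adjusted p = 0.00292). XLOC_016745 had 13, 22 and 13 counts in nsra/b and 10, 10 and 7 counts in Col-0 (log2 fold change 0.87 ± 0.34, edgeR adjusted p = 0.0864). XLOC_012789 had 22, 26 and 20 counts in nsra/b and 11, 15 and 14 counts in Col-0 (log2 fold change 0.81 ± 0.28, edgeR adjusted p = 0.0444). Both of these were separated between the genotypes in CPM yet did not pass the test. The 3 other large negative values, for XLOC_043278 (-0.83), XLOC_043277 (-0.81) and XLOC_043008 (-0.68), had edgeR adjusted p between 0.124 and 0.229. Among abundant members, XLOC_006438 (log2 fold change 0.12, edgeR adjusted p = 0.0229) and XLOC_011546 (0.12, adjusted p = 0.0745) did not pass, but did so without Col-0 replicate 2 (adjusted p = 0.00234) and without nsra/b replicate 3 (adjusted p = 0.00272) in that order. Here and for XLOC_005018 the library left out was the one of its genotype closest to the other genotype. Leaving it out widens the gap by construction, so these passes describe a dependence on that library.

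Antisense RNAs can act on the gene opposite them, by interfering with its transcription, by pairing with its mRNA or by guiding chromatin changes, and others have no known effect. The 86 positioned members are listed against 82 different genes, of which 58 members face protein-coding genes, 18 lncRNAs, 8 pseudogenes of either kind, 1 a tRNA and 1 another ncRNA. They lie on chromosomes 1 (29 members), 2 (20), 3 (16), 4 (15) and 5 (6). All 6 on chromosome 5 are on the plus strand, and no member numbered above XLOC_035633 has a listed position. These counts therefore describe the listed loci only. In TAIR10.1 coordinates 63 overlap their listed partner and 23 lie beside it, whereas 95.1% of all 1999 positioned de novo loci overlap theirs. The overlap had a median of 96 nt and fell between 90 and 100 nt for 34 members. The coding sequence was touched in 23 members and exonic non-coding sequence alone in 40, none reached into an intron, and 18 lay wholly inside the partner.

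The balance of counts between locus and partner ran over the whole range. It was taken over all 86 pairs, including the 23 whose locus lies beside the gene without overlap. For those 23 it compares neighbours and not the strands of the same sequence. The antisense share, the counts of the de novo locus over those of the pair, had a median of 30.6%, with 12 pairs under 1% and 37 pairs at 90% or more. All 18 members opposite a lncRNA had more counts than that lncRNA, and 17 of those lncRNAs had under 60 counts. Of the 58 members opposite a protein-coding gene, 43 had fewer counts than the gene. At the low end XLOC_035633, with 64 counts, faces RBCS3B, a small subunit gene of Rubisco with 985628 counts (share 0.00649%). XLOC_029731 faces FBA2, a fructose-bisphosphate aldolase, with 100 against 321116 counts (0.0311%). XLOC_007680 lies 38 nt upstream of the phosphoribulokinase gene PRK, on the opposite strand, with 91 against 250512 counts (0.0363%). The last 2 enzymes belong to the Calvin cycle of carbon fixation, as does Rubisco. No control for reads assigned to the wrong strand was given, so whether counts at this share reflect an antisense RNA was not tested.

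At the high end 12 pairs had a partner listed at 0. The 5 of these with most counts were XLOC_002186 (952 counts), XLOC_016191 (790), XLOC_028266 (332), XLOC_004511 (288) and XLOC_007444 (287), opposite the lncRNAs AT1G06417, AT2G08100, AT4G06880 and AT1G08903 and the proline tRNA gene AT1G28770 in that order. All but XLOC_002186 lie beside the partner without overlap. None of the 5 was called, with log2 fold changes between -0.21 and 0.31 and edgeR adjusted p between 0.125 and 0.799.

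Of the 48 different partner genes that passed the filter, 5 were called (10.4%, against 8.86% of all features), 4 higher and 1 lower in nsra/b. In no pair were the de novo locus and its partner both called, but among the called loci only XLOC_033955 faces a partner that was tested. PDX1.1, a vitamin B6 synthesis gene, had a log2 fold change of 0.17 ± 0.03 (edgeR adjusted p = 1.47e-05), whereas its antisense locus XLOC_017164 had 0.10 (adjusted p = 0.626), and the genome holds an identical copy of that locus within AT2G38210. MLP34, a major latex protein-like gene, rose by 0.29 ± 0.03 on the log2 scale (edgeR adjusted p = 9.58e-10), and the 81 counts of XLOC_004809 opposite it gave 0.58 (adjusted p = 0.287). The knottin-type gene AT2G43535 rose by 0.21 ± 0.03 (edgeR adjusted p = 1.31e-05), with XLOC_017579 at 0.12 (adjusted p = 0.711). The pseudogene AT3G13270 rose by 0.68 ± 0.17 (edgeR adjusted p = 0.00439), with XLOC_018717 at 0.21 (adjusted p = 0.210). MYB73, a transcription factor gene, fell by 0.16 on the log2 scale (SE 0.04, edgeR adjusted p = 0.00681), with XLOC_032806 at 0.26 (adjusted p = 0.657). For these pairs the difference between the change of the locus and that of the gene was not tested in a model. Without Col-0 replicate 2 or without nsra/b replicate 3, the count of called partners was 3.

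Of the 5 positioned members that were called, only XLOC_033955 faces a partner that passed the filter. AT5G14840, a transcribed pseudogene with 6678 counts, had a log2 fold change of -0.10 ± 0.04 (edgeR adjusted p = 0.0762). The antisense share of this pair was 2.002%, 1.736% and 2.044% in nsra/b and 0.573%, 0.886% and 0.321% in Col-0. All nsra/b shares lay above all Col-0 shares, which follows from the call of the locus beside a partner that was not called and is given as a description. The partners of XLOC_001724, XLOC_003755, XLOC_009735 and XLOC_016958 had 10, 1, 20 and 4 counts in all 6 libraries, so that nearly all counts of these pairs were on the de novo strand.

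**Figure D3:**
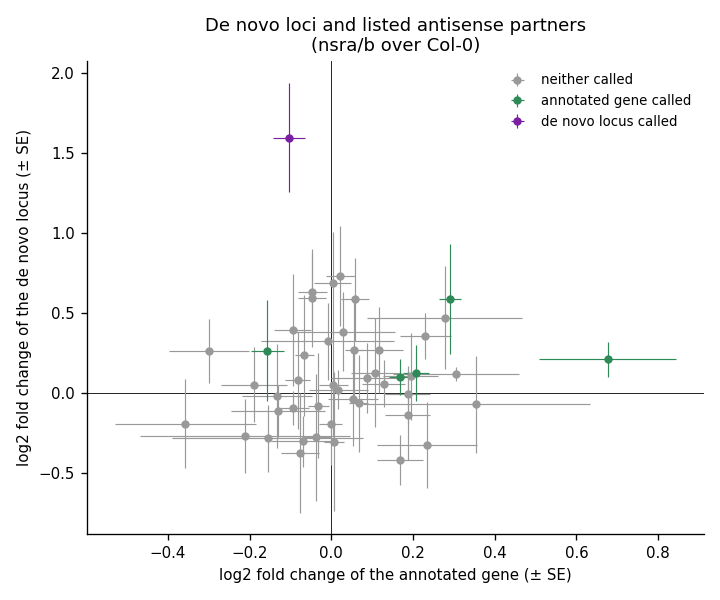
Log2 fold change (nsra/b over Col-0, ± SE) of the de novo locus against that of the listed partner gene, for the 48 pairs in which both were tested. Pairs with a called partner (green) and the pair with a called de novo locus, XLOC_033955 (purple), are different pairs.

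Loci over annotated microRNA genes formed a group that the choice of members did not use, and that was picked out from positions after the files had been opened. Whether their counts come from primary microRNAs was not tested. None of the 326 microRNA genes of the TAIR10.1 annotation has a row of its own in the count table, whereas 7 members overlap such a gene on their own strand, the strand being taken as opposite to the listed partner. XLOC_002186 covers the whole of MIR167d, XLOC_006301 MIR171b, XLOC_033077 MIR164b and XLOC_033939 MIR398c. XLOC_028597 covers 102 nt of MIR319a, XLOC_033937 80 nt of MIR398b and XLOC_031054 58 nt of MIR841a. Their microRNAs direct cleavage of mRNAs for auxin response factors (miR167), GRAS-type regulators (miR171), NAC regulators (miR164), TCP regulators (miR319) and copper-zinc superoxide dismutases (miR398).

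None of these 7 loci was called, a count too small to set against the 8.86% of all features. XLOC_002186 (MIR167d) was the most abundant of them, with 6.23, 5.57 and 4.80 CPM in nsra/b and 5.61, 5.76 and 4.52 CPM in Col-0 (log2 fold change 0.06 ± 0.11, edgeR adjusted p = 0.799). The direction of this value turned when Col-0 replicate 3 or nsra/b replicate 1 was left out. XLOC_031054 (MIR841a) had 3.54, 2.67 and 3.27 CPM in nsra/b and 3.05, 2.96 and 2.64 CPM in Col-0, and the genome holds another copy of it at 95.6% identity. XLOC_033077 (MIR164b) had 34, 25 and 31 counts in nsra/b and 28, 45 and 40 counts in Col-0 (log2 fold change -0.28 ± 0.21, edgeR adjusted p = 0.451). XLOC_006301 (MIR171b), XLOC_028597 (MIR319a) and XLOC_033939 (MIR398c) had 114, 82 and 108 counts in all, with overlapping genotypes and log2 fold changes of 0.15, -0.02 and 0.10.

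XLOC_033937 (MIR398b) came closest to a difference, with 45, 52 and 48 counts in nsra/b and 59, 69 and 73 counts in Col-0 (log2 fold change -0.42 ± 0.16, edgeR adjusted p = 0.0670, unadjusted p = 0.0113). In CPM all 3 nsra/b libraries, at 1.60 to 1.73, lay below all 3 Col-0 libraries, at 2.13 to 2.41. A separation of the genotypes in either direction was found in 6482 of all 21606 features tested, so it does not set this locus apart. XLOC_033939 over its neighbour MIR398c, on the same strand of chromosome 5, had 19, 20 and 16 counts in nsra/b and 14, 21 and 18 counts in Col-0 (log2 fold change 0.10 ± 0.27). The precursors are alike, as the sequences below show with both mature arms in capitals, and MIR398b and MIR398c give the same mature microRNAs.
MIR398b (chr5:4691022-4691137, plus strand): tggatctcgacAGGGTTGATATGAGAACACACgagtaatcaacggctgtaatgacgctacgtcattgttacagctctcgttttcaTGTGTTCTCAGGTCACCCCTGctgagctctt
MIR398c (chr5:4694694-4694808, plus strand): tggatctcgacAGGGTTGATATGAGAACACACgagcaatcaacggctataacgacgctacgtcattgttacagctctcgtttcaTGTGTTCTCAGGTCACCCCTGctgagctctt

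A further 4 members lie within 1000 nt of a microRNA gene on the same strand without overlap. XLOC_030111 begins 75 nt after MIR447a and had 2.54, 2.08 and 1.80 CPM in nsra/b and 1.97, 2.22 and 1.98 CPM in Col-0. XLOC_028266 ends 142 nt before MIR168a, whose microRNA targets the mRNA of ARGONAUTE1, the protein that carries most plant microRNAs, and had 2.11, 1.59 and 1.57 CPM in nsra/b and 2.64, 1.48 and 2.04 CPM in Col-0. XLOC_028242 ends 608 nt before MIR5661 and had 94 counts in all. In these 3 the genotypes overlapped. XLOC_009735, 659 nt after MIR157a, is the called locus described above. Whether the loci beside microRNA genes belong to the same transcripts cannot be read from a count table.

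**Figure D4:**
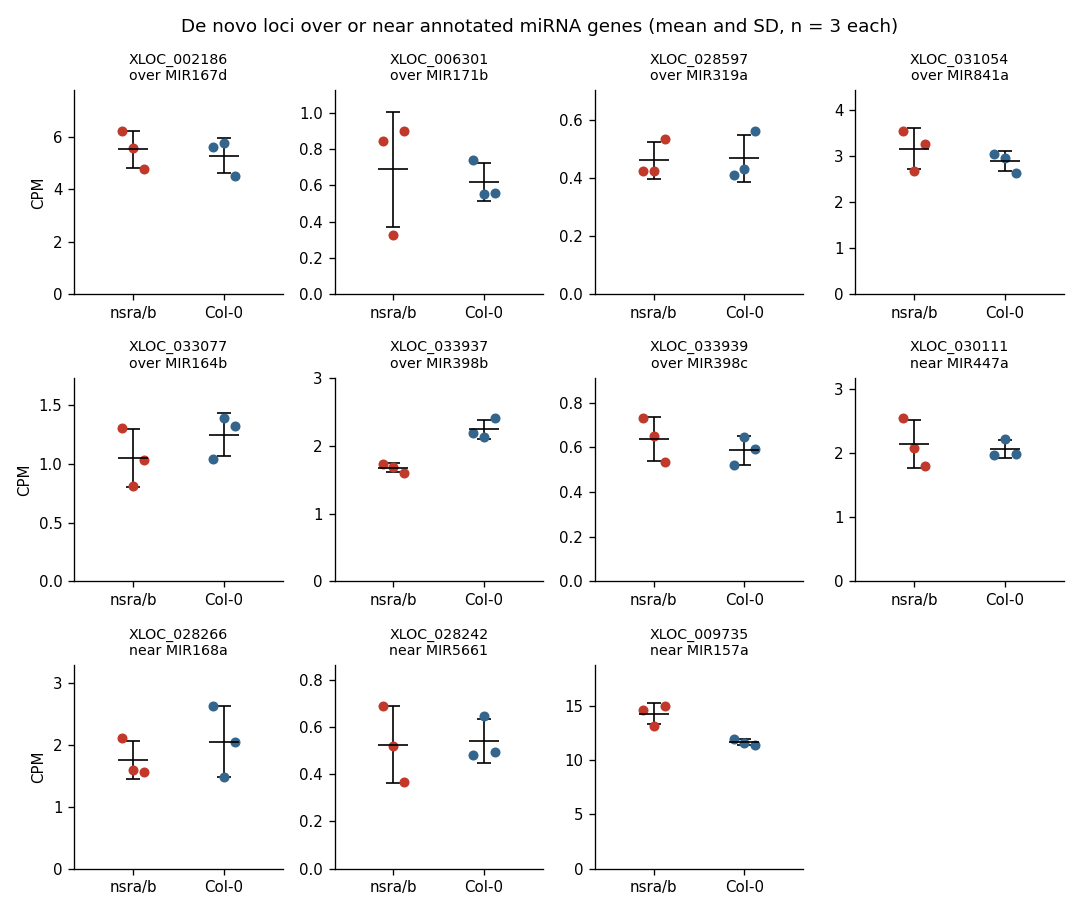
CPM in each library of the 7 de novo loci that overlap a microRNA gene on their strand ("over") and the 4 within 1000 nt of one ("near"), with nsra/b libraries (red) left of Col-0 libraries (blue), the mean as a bar and the SD as error bar (n = 3 each). The genotypes are separated for XLOC_033937, which was not called, and for XLOC_009735, which was. Separation was also found in 6482 of all 21606 features tested, so it does not set these loci apart.

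The genes that process or degrade such RNAs were read from the same fit. Of 16 genes for nuclear and cytoplasmic RNA decay and microRNA processing, all tested, 0 were called higher and 0 lower (edgeR), 3 had an unadjusted p under 0.05, and DESeq2 called 0. Over all features 8.86% were called and 26.7% had an unadjusted p under 0.05, so counts this small do not set the list apart. The 3 were XRN2 and XRN3, nuclear 5′ to 3′ exonucleases, with log2 fold changes of -0.11 and -0.06 (edgeR adjusted p = 0.0206 and 0.170), and SERRATE, a partner of DICER-LIKE1, with -0.08 (adjusted p = 0.137). HEN2, an RNA helicase of the nuclear exosome, had a log2 fold change of 0.02 (adjusted p = 0.834). The median of the list was -0.03, against 0.00 over all features.

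The 117 members without a listed position were divided by number at XLOC_042696 into 2 sets, a split made after the values were seen. The 41 numbered below XLOC_042696 hold 6 of the called loci, 3 higher and 3 lower (14.6%, against 8.86% of all features). The 76 numbered XLOC_042696 and above hold 0 called loci in the main edgeR fit. In that fit 8 had an unadjusted p under 0.05 (10.5%, all lower in nsra/b) and 28 had log2 fold changes above 0 (36.8%). Of all features 8.86% were called, 26.7% had an unadjusted p under 0.05 and 10802 of 21606 had a log2 fold change above 0. Without the filter on low counts edgeR called 6 of the 76, against 2202 of all 31520 features in that fit. These 76 include 4 of the 8 most abundant members. XLOC_042755 had 89.1, 65.7 and 78.8 CPM in nsra/b and 66.7, 75.3 and 99.7 CPM in Col-0, a within-genotype spread wider than the difference (log2 fold change -0.06 ± 0.08). XLOC_042714 had 48.3, 31.5 and 40.8 CPM in nsra/b and 35.3, 41.4 and 53.8 CPM in Col-0 (-0.13 ± 0.10).

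XLOC_042759 had 39.4, 23.3 and 26.8 CPM in nsra/b and 32.0, 37.0 and 37.0 CPM in Col-0 (log2 fold change -0.27 ± 0.09, edgeR adjusted p = 0.0451). XLOC_042766 had 36.6, 18.5 and 20.3 CPM in nsra/b and 23.1, 27.5 and 34.3 CPM in Col-0 (-0.20 ± 0.13, edgeR adjusted p = 0.340). In all 4 of these loci nsra/b replicate 1 was the highest nsra/b library and Col-0 replicate 1 the lowest Col-0 library.

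The same held for the 76 loci together. Their summed level was 549, 365 and 428 CPM in nsra/b and 423, 471 and 531 CPM in Col-0, and 68 of the 76 were above their nsra/b mean in replicate 1, against 13 in replicate 2. The 86 positioned members summed to 431, 408 and 402 CPM in nsra/b and 411, 428 and 395 CPM in Col-0. The 41 others summed to 154.6, 150.0 and 149.7 CPM in nsra/b and 154.7, 156.6 and 159.5 CPM in Col-0. The median SD between nsra/b libraries, on the scale of log2 of CPM plus 0.5, was 0.28 for the 76 loci and 0.16 for each of the other sets. Without nsra/b replicate 1, 12 of the 76 were called lower and 0 higher (edgeR), against 3.44% of all features called lower in that fit. XLOC_042759 then had a log2 fold change of -0.50 and an adjusted p of 4.68e-10. Replicate 1 was the nsra/b library in which most of these loci were high, so leaving it out lowers their nsra/b mean by construction. These values describe the dependence on that library and are not a test of the genotype. All 134 plastid and 161 mitochondrial genes of the table were listed at 0 in every library. What the 76 loci are and why they vary together was not tested.

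**Figure D5:**
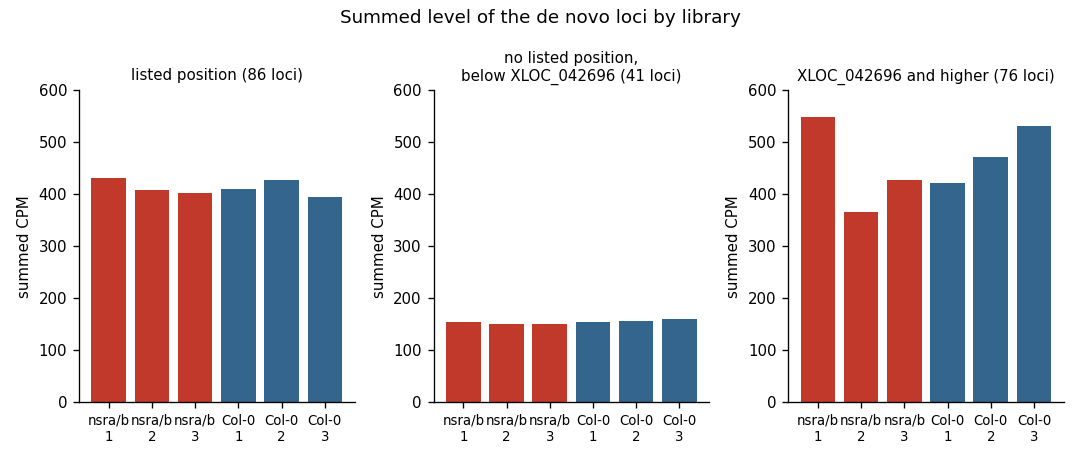
Summed CPM per library of the 86 positioned members, the 41 unpositioned members numbered below XLOC_042696 and the 76 numbered XLOC_042696 and above, with nsra/b libraries (red) left of Col-0 libraries (blue). The 76 loci range from 365 to 549 CPM between nsra/b libraries, whereas the other sets stay nearly level.

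At the lower limit of 60 counts, the members just inside were XLOC_008893 (60 counts), XLOC_041776 (60) and XLOC_022949 (61), and the loci just outside were XLOC_012515 (57), XLOC_042816 (57) and XLOC_009459 (56). XLOC_008893 had 14, 8 and 10 counts in nsra/b and 6, 13 and 9 counts in Col-0. XLOC_012515 had 13, 10 and 8 counts in nsra/b and 9, 9 and 8 counts in Col-0. At such levels neighbours across the limit look alike. XLOC_022949 faces SPY, a regulator of gibberellin signalling, which had 7623 counts. XLOC_016016 was the member below the filter on low counts and was not tested. It had 6, 8 and 6 counts in nsra/b and 8, 13 and 21 counts in Col-0, opposite NAGS1, an enzyme of arginine synthesis, whose log2 fold change was 0.10 (edgeR adjusted p = 0.254).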

How the data were processed

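The 6 strand-specific, poly(A)-selected libraries of whole seedlings were analysed together. The authors deposited raw counts per feature. Per the study's methods, pairs were quality filtered with fastqc, aligned with tophat, with 1 alignment retained for each read, and assigned to features by summarizeOverlaps (strand specific, Union mode) on annotated genes and loci assembled with cufflinks. The submitters' processing notes name build TAIR10. The methods and labels differ in seedling age and read length, which entered no calculation. No per-sample column was left unused.

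Members were the XLOC rows with at least 60 counts over the 6 libraries. The choice of this rule and of the gene lists was made with earlier results of these data known. The whole table of 44200 features was fitted with edgeR 4.0.16 in R 4.3.3: TMM, filterByExpr (minimum count 10, minimum total 15), quasi-likelihood F test of nsra/b against Col-0 with no other term, and Benjamini-Hochberg adjustment over the 21606 features tested, at an adjusted p under 0.01. The study's methods used DESeq2, run here as an alternative (1.42.0) beside limma voom 3.58.1, other scalings, filters and thresholds, a replicate block, each library left out and other member minimums. Standard errors were obtained by dividing each log2 fold change, without its sign, by the root of its F statistic. The test was checked on simulated data.

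Positions and partners came from the study's supplementary list, and gene models, names and sequences from RefSeq TAIR10.1, the strand of a locus being set opposite its partner. Other copies were searched with blastn at 95% identity and 90% coverage. Named loci were those called; the 8 most abundant; the 5 largest changes each way; the 3 nearest each side of the limit; the 5 highest and 3 lowest antisense shares, ties by counts; those under the filter; and partners of these. microRNA loci and called partners were named after their values were seen. Counting error limits the precision of loci with few counts.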

Additional observations from a re-analysis of the deposited data

How the results depend on the processing

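The 7 members called higher and 4 called lower were also counted under other settings. More than 1 CPM in at least 3 libraries gave 4 higher, DESeq2 gave 0 higher and left 3 of the 7 (XLOC_016958, XLOC_030975 and XLOC_033955) without an adjusted p, Bonferroni adjustment gave 1 higher and 2 lower, requiring a change of at least 1 on the log2 scale gave 3 higher and 0 lower, and a minimum of 120 counts for members gave 4 higher. Without a filter 12 were called lower, and at an adjusted p under 0.05, 10 were. Leaving out each library gave 3 to 7 higher, lowest without Col-0 replicate 3, and 3 to 17 lower, highest without nsra/b replicate 1. Called partners numbered 8 without a filter, 3 with DESeq2, 11 at an adjusted p under 0.05, 3 with Bonferroni adjustment, 0 with a change of at least 1 on the log2 scale, and 3 to 6 with each library left out. Of the decay and processing genes, 1 passed an adjusted p under 0.05, against 0 under 0.01. XLOC_001724, XLOC_030984 and XLOC_039261 were called under every alternative fit and with each library left out. Same-numbered libraries of the genotypes did not deviate together (correlations of -0.01, 0.02 and 0.05), so the numbers were not taken as pairs. With a replicate block 8 members were called higher, XLOC_006438 being added (adjusted p = 0.00881), and 4 lower. No named member that was called in any fit changed direction. The cause of these differences was not tested. The median standard error of the members was 0.19, and how much of it is counting error was not tested.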
